A study of Mus musculus with 8 samples.

Results

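The hnRNP, SR, CELF, MBNL and PTB proteins are RNA-binding proteins that choose splice sites, and their genes were examined in microglia, the resident macrophages of the brain. The set was chosen by name: every protein-coding gene with reads whose symbol starts with Hnrnp, Srsf, Celf, Mbnl or Ptbp, which gave 43 of the 46983 genes in the deposited table and of its 17331 protein-coding genes with reads. The hnRNP family had 20 of these genes, the SR family 11, the CELF family 6, the MBNL family 3 and the PTB family 3. The rule itself uses no measured difference, but it was chosen with earlier results of these data known. One processed pseudogene, Hnrnpa1l2-ps, matched by symbol and was left out because it is not protein-coding.

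Total RNA was sequenced from 8 libraries of microglia of the corpus callosum, 4 named Qk-KO and 4 named WT, from mice of an FvB/C57BL6 hybrid background. The named Qk-KO genotype is Cx3cr1-CreER;QKLoxP/LoxP, with both copies of Qk flanked by loxP sites, and the named WT genotype is Cx3cr1-CreER;QKLoxP/+, with a single flanked copy. Every mouse in both groups therefore carried the tamoxifen-inducible Cre recombinase under Cx3cr1, a promoter active in microglia and also in other macrophages and monocytes. All received tamoxifen at the age of 8 weeks and then ate 0.2% cuprizone for 6 weeks, a compound that binds copper and leads to loss of oligodendrocytes and myelin, so the series holds no untreated brain. The genotype field of the labels contradicts the sample name for named Qk-KO 1 and 3 and for named WT 2 and 3. Each combination of name and field held 2 libraries, and both groupings were tested. Nothing in the labels says whether each library was a separate animal, so a p-value here speaks of spread between libraries, and that spread may be technical.

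SR proteins carry a domain rich in arginine and serine, bind exonic enhancers and mostly promote inclusion of the exon they bind. Many hnRNPs and the PTB proteins bind silencers in exons and introns and mostly act against it. MBNL and CELF proteins act on developmental exons, often in opposite directions, and also control RNA stability. Quaking, the product of Qk, belongs to the STAR family and meets these proteins on shared targets, binding RNA through a core that reads ACTAAC or ACTAAT in DNA letters. Many of these regulators hold down their own RNA by splicing in an exon with a stop codon, which sends the transcript to nonsense-mediated decay.

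The quaking core was searched on the sense strand of the 3′ UTR of 1 transcript for each gene in the GENCODE M21 annotation of GRCm38. The sites below are a selection. They belong to members whose values are described next, from some of the most abundant genes and from some of those with the lowest p-values. Hnrnpu and Hnrnpa1 also held cores, which are not printed. Each printed site is the reference sequence, 30 bases long, 5′ to 3′ on the sense strand of the gene, with the core in capitals.
Srsf5 site 1 (chr12:80950132-80950161, plus strand): gggttgttgaaaACTAATtgtattaaatgt
Srsf5 site 2 (chr12:80950318-80950347, plus strand): tagtttaattaaACTAACgaatagttttgg
Srsf10 site (chr4:135867385-135867414, plus strand): gtacttgtggaaACTAATccctaaatatga
Hnrnpk site (chr13:58392189-58392218, minus strand): gggcatgcaaaaACTAACattgaaattttg
Mbnl1 site (chr3:60627089-60627118, plus strand): ttatttgctagtACTAATcaatcaaagggc

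At least 1 core was present in 19 of 43 members, or 44.2%, against 31.6% of 15373 protein-coding genes tested. The density was 0.394 cores per kb of 3′ UTR over the members and 0.345 per kb over all these genes, and the UTRs of the members were longer, with a median of 1341 bases against 992 bases. Hnrnpr alone held 10 of the members' 36 cores, in a UTR of 19419 bases, so the members' density rests in part on 1 gene. Srsf7, Celf1, Hnrnpdl, Hnrnph1 and the 3 PTB genes had no core in the transcript searched. A letter match is not a binding site, and introns were not searched.

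Srsf7 and Srsf5 were among 4 members with an unadjusted p under 0.05 in limma by sample name. Their promoters are shown as examples of the GC box, a motif most members shared. The ETS core marked in both was in only 6 of the 39 members with a promoter sequence. Each runs from 250 bases before to 50 bases after the annotated start, is taken from RefSeq on GRCm38.p6 and is written 5′ to 3′ along the gene. Capitals mark GGGCGG (the GC box) and CCGGAAG (an ETS core) on either strand, and both motifs overlap at 1 place in the Srsf5 promoter.
Srsf7 promoter (chr17:80207256-80207555, minus strand): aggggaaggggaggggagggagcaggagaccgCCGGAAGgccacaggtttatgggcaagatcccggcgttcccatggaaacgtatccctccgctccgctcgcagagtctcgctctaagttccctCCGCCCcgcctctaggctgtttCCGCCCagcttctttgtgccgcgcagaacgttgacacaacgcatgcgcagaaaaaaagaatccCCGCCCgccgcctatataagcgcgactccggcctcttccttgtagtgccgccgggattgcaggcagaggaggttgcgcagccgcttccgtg
Srsf5 promoter (chr12:80945249-80945548, plus strand): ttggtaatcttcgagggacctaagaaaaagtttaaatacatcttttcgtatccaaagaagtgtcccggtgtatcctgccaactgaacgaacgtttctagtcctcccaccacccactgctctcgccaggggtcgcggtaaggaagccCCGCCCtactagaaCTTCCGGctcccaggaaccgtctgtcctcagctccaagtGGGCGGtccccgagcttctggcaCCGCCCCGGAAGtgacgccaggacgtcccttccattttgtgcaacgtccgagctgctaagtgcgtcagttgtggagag

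A GC box was found in 31 of the 39 members with a promoter sequence, or 79.5%, against 35.7% of all 32851 promoters of this length. Unlike the members, these promoters were not limited to tested genes or to 1 promoter per gene, so the sets are not alike. The median GC content was 68.3% in the members and 52.7% in all promoters, and a GC-rich motif is more frequent in GC-rich sequence. The ETS core was in 6 of 39 members, or 15.4%, against 8.86% of all promoters. CCAAT was in 19 of 39, or 48.7%, against 37.4% of all. TATAAA was in 4 of 39, or 10.3%, against 13.6%, all counted on both strands. The other motifs searched, TGACGTCA, the NRF1 palindrome and AAGATGGC, were in 1, 0 and 2 of the 39 promoters, against 1.79%, 0.971% and 2.75% of all.

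As a check of the labels, the targeted gene Qk had regularized log2 values of 15.59, 15.40, 15.69 and 15.29 in named Qk-KO 1 to 4, against 15.50, 15.38, 15.41 and 15.37 in named WT 1 to 4. The groups overlapped, and the difference of 0.08 ± 0.085 (SE) had an adjusted p of 0.819 in limma over 22546 genes. Grouped by the genotype field the difference was -0.16 ± 0.076 (SE), lower in field Qk-KO libraries, with an adjusted p of 0.9995 in limma. The groups by field overlapped only through named WT 4, and the other field WT values lay above all field Qk-KO values. Exons inside and outside the loxP sites are summed in the Qk value, so it says little about recombination, and the differences that follow are tied to library names alone.

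Most of the 43 genes were strongly expressed. The mean signal reached at least 1 CPM in 38 of them, where the CPM unit is the authors' mean signal over all libraries, rescaled by its sum over all genes of the table. Uncorrected for length, the mean signal was 458 CPM for Hnrnpu, 427 CPM for Hnrnpk and 422 CPM for Mbnl1. Hnrnpu binds nuclear RNA and chromatin, Hnrnpk binds cytosine-rich RNA, and Mbnl1 is the protein sequestered by repeat RNA in myotonic dystrophy. Levels of different genes are compared here only per kb of annotated exon, all isoforms joined.

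On that scale Hnrnpa1, which antagonises SR proteins at many splice sites, stood first with 87.2 CPM per kb. It was followed by Srsf5 with 67.7 CPM per kb, Hnrnpk with 66.0 CPM per kb and Hnrnpf with 62.0 CPM per kb. Srsf2, a general enhancer-binding SR protein, had 44.2 CPM per kb. The families were thus mixed at the top of the order, with hnRNP and SR genes side by side.

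Paralogs differed widely in level. Of the PTB genes, Ptbp1, the form of most non-neuronal cells, had 46.5 CPM per kb and Ptbp3, known from blood cells, had 29.7 CPM per kb. Ptbp2, the neuronal form that follows Ptbp1 in neurons, had 2.94 CPM per kb. Of the MBNL genes, Mbnl1 had 22.5 CPM per kb and Mbnl2, the main form of the adult brain, 6.98 CPM per kb, against 0.020 CPM per kb for Mbnl3, known from placenta and muscle precursors. Of the CELF genes, the broadly expressed Celf1 had 11.6 CPM per kb and Celf2 3.53 CPM per kb, whereas the neuronal Celf4, Celf5, Celf3 and Celf6 had between 0.0069 and 0.130 CPM per kb. Srsf12 was the one SR gene under 1 CPM, with 0.016 CPM per kb.

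**Figure D1:**
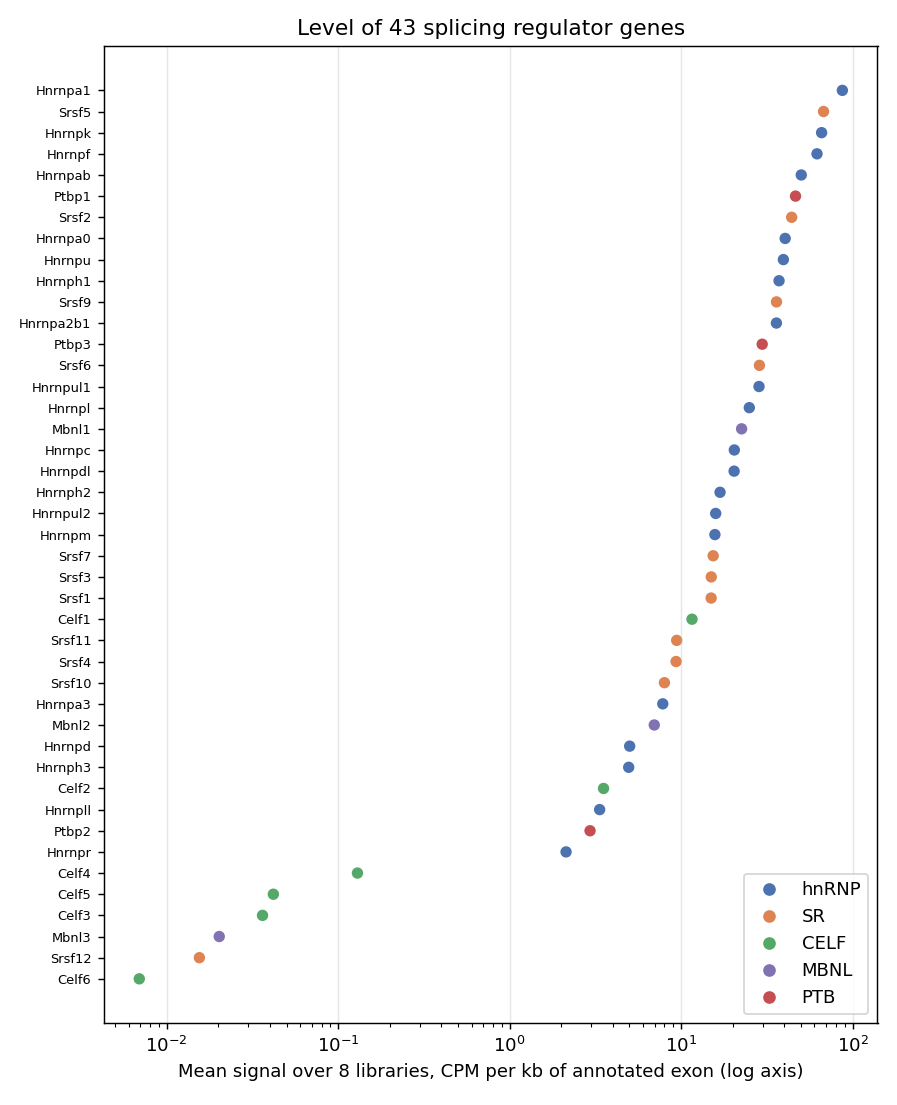
Mean signal of the 43 genes over all 8 libraries in CPM per kb of annotated exon, on a log axis, coloured by family. Hnrnpa1 stands at the top with 87.2 CPM per kb, and 6 genes, 4 of them CELF genes, lie at 0.130 CPM per kb or below.

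Named Qk-KO and named WT libraries were compared to ask whether loss of quaking in microglia goes with different amounts of RNA for other splicing regulators. No member passed the test. Limma called 0 of 43 members at an adjusted p under 0.05, with a smallest adjusted p of 0.448, and 1 of 22546 genes tested, or 0.00444%. Of the 43 members, 37 have an adjusted p in the authors' deposited table and 0 are called there, with a smallest adjusted p of 0.156 for Srsf7, against 173 of 14150 genes, or 1.22% (0.551% higher in named Qk-KO libraries).

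At an unadjusted p under 0.05 limma had 4 of 43 members (Srsf7, Srsf10, Celf1 and Srsf5), all higher in named Qk-KO libraries, or 9.30%. The share of all tested genes was 8.26%, with 3.76% higher and 4.5% lower in named Qk-KO libraries. In the authors' deposited table the same 4 members had an unadjusted p under 0.05 out of 37, or 10.8%, against 10.7% of all genes in either direction and 5.67% higher. With both directions counted, the members' share was thus close to that of all genes.

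The direction leaned one way. The difference was positive for 30 of 43 members, against 48.8% of all tested genes, and for 30 of the 38 members of at least 1 CPM, against 52% of all genes at that level. The members' median difference was 0.03 on the log2 scale and that of all tested genes -0.004. Scaling each library to the same median over genes shifted all differences by 0.077, and 35 of 43 members were then positive, against 67% of all genes. With quantile normalization 25 of 43 were positive, against 52.6% of all.

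The families differed in this. Of the SR genes 10 of 11 had a positive difference (median 0.14), of the hnRNP genes 14 of 20 (median 0.02), of the PTB genes 3 of 3 (median 0.10) and of the MBNL genes 2 of 3 (median 0.13). Of the CELF genes 1 of 6 was positive (median -0.13), and 3 of the other five lie under 1 CPM. Whether families differ from each other was not tested.

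The libraries also set limits on how large a difference could have been. The 95% limma interval lay within a 1.5-fold change in either direction for 36 of the 38 members of at least 1 CPM and within a 1.25-fold change for 27 of them. It was wider than 1.5-fold for Celf4 and Ptbp2. The 5 members under 1 CPM are not counted, since shrinkage narrows their intervals. Rough totals of reads assigned to genes were 43.9 to 58.5 M in named Qk-KO and 59.7 to 69.7 M in named WT libraries and did not overlap, so depth and sample name cannot be told apart. In bulk RNA, fewer cells of a type and less RNA per cell cannot be told apart.

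**Figure D2:**
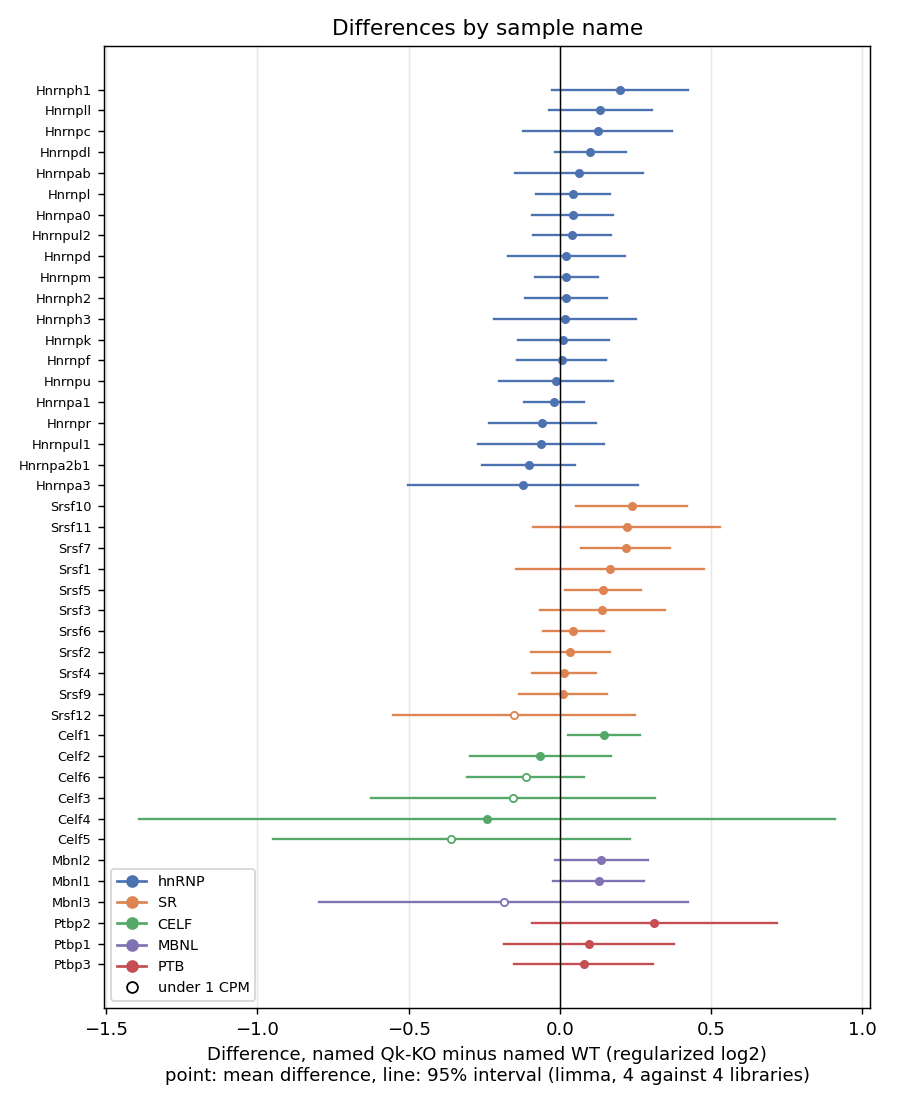
Difference between named Qk-KO and named WT libraries for each of the 43 genes, with its 95% limma interval (4 against 4 libraries), on the regularized log2 scale. Open points mark the genes under 1 CPM. The intervals of Srsf7, Srsf10, Srsf5 and Celf1 lie above 0, and none of the 4 passed adjustment over all genes.

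Among the SR genes, Srsf7 had the smallest p of the set. Srsf7 (ENSMUSG00000024097.10, chr17:80200080-80207307, minus strand) encodes a shuttling SR protein with a zinc knuckle that also acts in RNA export and in poly(A) site choice. On the regularized log2 scale it had 11.63, 11.81, 11.76 and 11.60 in named Qk-KO 1 to 4, against 11.45, 11.51, 11.57 and 11.40 in named WT 1 to 4. All named Qk-KO values lay above all named WT values, with named Qk-KO 4 and named WT 4 the lowest of their groups. The difference was 0.22 ± 0.066 (SE; 95% interval 0.07 to 0.37), a ratio of 1.16, with an adjusted p of 0.448 in limma.

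Srsf10 (ENSMUSG00000028676.17, chr4:135855747-135869908, plus strand) encodes an SR protein that represses splicing when dephosphorylated, as in mitosis and heat shock. It had 11.69, 11.74, 11.86 and 11.70 in named Qk-KO 1 to 4, against 11.54, 11.53, 11.67 and 11.29 in named WT 1 to 4. The groups did not overlap, though named Qk-KO 1 and named WT 3 were close, and named WT 4 was lowest by a wide margin. The difference was 0.24 ± 0.082, a ratio of 1.18, with an adjusted p of 0.510 in limma, and 0.16 without named WT 4.

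Srsf5 (ENSMUSG00000021134.17, chr12:80945504-80950507, plus strand), an SR protein whose RNA responds to insulin and other growth signals in other cells, carries the pair of quaking cores printed above. It had 13.95, 14.01, 14.05 and 13.88 in named Qk-KO 1 to 4, against 13.92, 13.80, 13.80 and 13.80 in named WT 1 to 4. Named WT 1 stood above the other three of its group and above named Qk-KO 4, so the groups overlapped. The difference was 0.14 ± 0.056, a ratio of 1.10, with an adjusted p of 0.561 in limma.

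The other 8 SR genes had unadjusted p over 0.05. Srsf11 had a difference of 0.22 ± 0.137. One low value set it, 11.56 in named WT 2 against 12.04 to 12.25 in the other named WT libraries, and without named WT 2 it was 0.07. Srsf1, the founding SR protein and a proto-oncogene, had a difference of 0.17 ± 0.137, and 0.01 without named WT 4, whose value was 11.69 against 12.25 to 12.37 in the rest of its group. Srsf3, the smallest SR protein, had 0.14 ± 0.092, and 0.07 without named WT 4 or 0.21 without named Qk-KO 4. Srsf2, Srsf4, Srsf6 and Srsf9 had differences between 0.01 and 0.05, and Srsf4 varied over all 8 libraries by 0.06 only. Srsf4 shares 43.0% of its exon bases with Gm12992 on the opposite strand and Srsf2 shares 25.3% with Mettl23 and Mfsd11, so reads of these pairs cannot be told apart, since no label states whether counting used the strand.

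Celf1 (ENSMUSG00000005506.16, chr2:90940382-91019497, plus strand), which binds GU-rich elements and promotes decay of the RNA that holds them, was the CELF gene with the highest level and the smallest p. It had 12.52, 12.55, 12.56 and 12.41 in named Qk-KO 1 to 4, against 12.33, 12.38, 12.43 and 12.32 in named WT 1 to 4. Named WT 3 (12.43) lay above named Qk-KO 4 (12.41), and the other values of the groups did not overlap. The difference was 0.14 ± 0.053, a ratio of 1.10, with an adjusted p of 0.527 in limma.

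Celf2, a close paralog abundant in brain and lymphocytes, had 12.17, 12.27, 12.63 and 12.14 in named Qk-KO 1 to 4, against 12.39, 12.36, 12.26 and 12.46 in named WT 1 to 4. Named Qk-KO 3 was the highest of all and named Qk-KO 4 the lowest, so the difference of -0.07 ± 0.104 lay within the spread of 1 group. It was -0.17 without named Qk-KO 3 and -0.01 without named Qk-KO 4.

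Celf4, a neuronal regulator of synaptic transcripts, had 5.61, 5.11, 4.53 and 7.00 in named Qk-KO 1 to 4, against 5.16, 5.68, 5.83 and 6.54 in named WT 1 to 4. The value was highest in the libraries numbered 4 of both groups, and it varied over the 8 libraries by 2.47, the widest span of the set. The difference was -0.24 ± 0.508, against a fold change of 0.02 (log2) listed in the authors' deposited table, and these have opposite signs. Leaving out 1 library gave from -0.72 (without named Qk-KO 4) to 0.10 (without named Qk-KO 3). Celf3, Celf5 and Celf6, all neuronal, had differences of -0.16, -0.36 and -0.11 at levels under 1 CPM, where shrinkage pulls the values of a gene together. Their ranges over the 4 named Qk-KO libraries were 3.09 to 3.58, 3.19 to 3.90 and 0.30 to 0.50, against 3.16 to 3.96, 3.42 to 4.58 and 0.30 to 0.58 over the named WT libraries. Without named WT 3 the differences were 0.008, -0.16 and -0.07.

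Of the hnRNP genes 1 did not overlap between groups. Hnrnpdl (ENSMUSG00000029328.15, chr5:100033577-100039664, minus strand), a paralog of AUF1 whose own exons are subject to feedback splicing, had 12.46, 12.47, 12.61 and 12.44 in named Qk-KO 1 to 4, against 12.43, 12.37, 12.39 and 12.38 in named WT 1 to 4. All named Qk-KO values lay above all named WT values, with named Qk-KO 4 and named WT 1 almost touching. The difference was 0.10 ± 0.052, with an adjusted p of 0.658 in limma, and 0.06 without named Qk-KO 3. Together with Srsf7 and Srsf10 this made 3 of 43 members with all named Qk-KO values above all named WT values, or 6.98%, against 3.04% of all tested genes. Of 43 core spliceosome genes, 3 also had all values above, or 6.98%. Among genes of at least 1 CPM the share was 7.89% of 38 members and 3.83% of all. No member had all values below, against 2.7% of all tested genes. Hnrnpdl and the next gene were singled out after their values were seen.

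Hnrnph1 (ENSMUSG00000007850.16, chr11:50376990-50386528, plus strand), which binds runs of G, had 13.66, 13.74, 13.89 and 13.44 in named Qk-KO 1 to 4, against 13.50, 13.55, 13.59 and 13.29 in named WT 1 to 4. Named Qk-KO 4 lay below 3 of the 4 named WT values. The difference was 0.20 ± 0.101, the largest of the hnRNP genes, with an adjusted p of 0.651 in limma, and 0.13 without named Qk-KO 3. Its paralogs Hnrnpf, Hnrnph2 and Hnrnph3 had differences of 0.006, 0.02 and 0.02.

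At the other end Hnrnpa3, an RNA-binding paralog of Hnrnpa1, had 11.21, 11.25, 11.37 and 10.74 in named Qk-KO 1 to 4, against 11.31, 11.49, 11.41 and 10.85 in named WT 1 to 4. The libraries numbered 4 were the lowest of both groups, and the difference was -0.12 ± 0.168. Without named Qk-KO 4 it was 0.01 and without named WT 4 it was -0.26. Hnrnpa2b1, which carries RNA into cell processes, had 13.50, 13.77, 13.70 and 13.68 in named Qk-KO 1 to 4, against 13.87, 13.75, 13.73 and 13.70 in named WT 1 to 4. Named Qk-KO 1 was the lowest value and named WT 1 the highest, and the difference was -0.10 ± 0.068, and -0.05 without named Qk-KO 1. Hnrnpul1, a paralog of Hnrnpu with a role at DNA breaks, had 13.74, 13.60, 13.65 and 13.95 in named Qk-KO 1 to 4, against 14.01, 13.73, 13.73 and 13.72 in named WT 1 to 4. Named Qk-KO 4 and named WT 1 stood above the rest. The difference was -0.06 ± 0.093, and -0.14 without named Qk-KO 4 or 0.008 without named WT 1.

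Hnrnpu, the hnRNP with the highest mean signal uncorrected for length, had 14.75, 14.72, 14.74 and 14.41 in named Qk-KO 1 to 4, against 14.69, 14.70, 14.74 and 14.55 in named WT 1 to 4. Named Qk-KO 4 and named WT 4 were lowest, the other 6 values lay between 14.69 and 14.75, and the difference was -0.01 ± 0.084, and 0.07 without named Qk-KO 4. Hnrnpa1 varied least of the hnRNP genes, by 0.09 over all libraries, with a difference of -0.02 ± 0.044 and a 95% interval of -0.12 to 0.08. Hnrnpk had a difference of 0.01 ± 0.067. Hnrnpu, Hnrnpa1 and Hnrnpk each held at least 1 quaking core in the 3′ UTR searched. Over the whole family the differences ran from -0.12 to 0.20, and 0 of 20 had an unadjusted p under 0.05 in limma or in the authors' deposited table.

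Mbnl1 (chr3:60472830-60629750, plus strand) had 14.55, 14.56, 14.77 and 14.56 in named Qk-KO 1 to 4, against 14.54, 14.55, 14.45 and 14.37 in named WT 1 to 4. Named Qk-KO 3 stood apart above the rest, and the other named Qk-KO values overlapped with those of named WT 1 and 2. The difference was 0.13 ± 0.067, with an adjusted p of 0.661 in limma, and 0.08 without named Qk-KO 3. The authors' deposited table gives Mbnl1 a log2 fold change of 0.13 and no p, one of 165 genes with reads and no p there. Mbnl2 had 12.26, 12.12, 12.42 and 12.31 in named Qk-KO 1 to 4, against 12.17, 12.14, 12.19 and 12.07 in named WT 1 to 4. Its difference was 0.14 ± 0.069, with named Qk-KO 3 again the highest, and 0.09 without that library. Mbnl3, under 1 CPM, had values from 2.86 to 3.25 in named Qk-KO libraries and from 2.70 to 3.87 in named WT libraries, and a difference of -0.19 ± 0.272, which was 0.04 without named WT 2.

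Ptbp2 (chr3:119718742-119784466, minus strand) had the largest positive difference of the 38 genes of at least 1 CPM. It had 10.80, 10.64, 11.14 and 10.25 in named Qk-KO 1 to 4, against 10.40, 10.43, 10.62 and 10.12 in named WT 1 to 4. The named Qk-KO values spread widely, and named Qk-KO 4 lay below 3 named WT libraries. The difference was 0.31 ± 0.178 (95% interval -0.09 to 0.72), with an adjusted p of 0.675 in limma, and it was 0.17 without named Qk-KO 3 and 0.46 without named Qk-KO 4. Its paralog Ptbp1, which keeps Ptbp2 low in other cells by skipping an exon of its RNA, had 14.03, 13.56, 13.62 and 13.38 in named Qk-KO 1 to 4, against 13.58, 13.65, 13.56 and 13.40 in named WT 1 to 4. Named Qk-KO 1 alone was far above the others, and the difference of 0.10 ± 0.125 was -0.03 without it and 0.18 without named Qk-KO 4. Ptbp3 had 13.84, 13.39, 13.84 and 13.56 in named Qk-KO 1 to 4, against 13.59, 13.64, 13.63 and 13.45 in named WT 1 to 4, with named Qk-KO 1 and 3 the highest and named Qk-KO 2 the lowest. Its difference of 0.08 ± 0.103 was 0.02 without named Qk-KO 3 and 0.17 without named Qk-KO 2. Ptbp1 shares 20.7% of its exon bases with genes on the opposite strand.

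**Figure D3:**
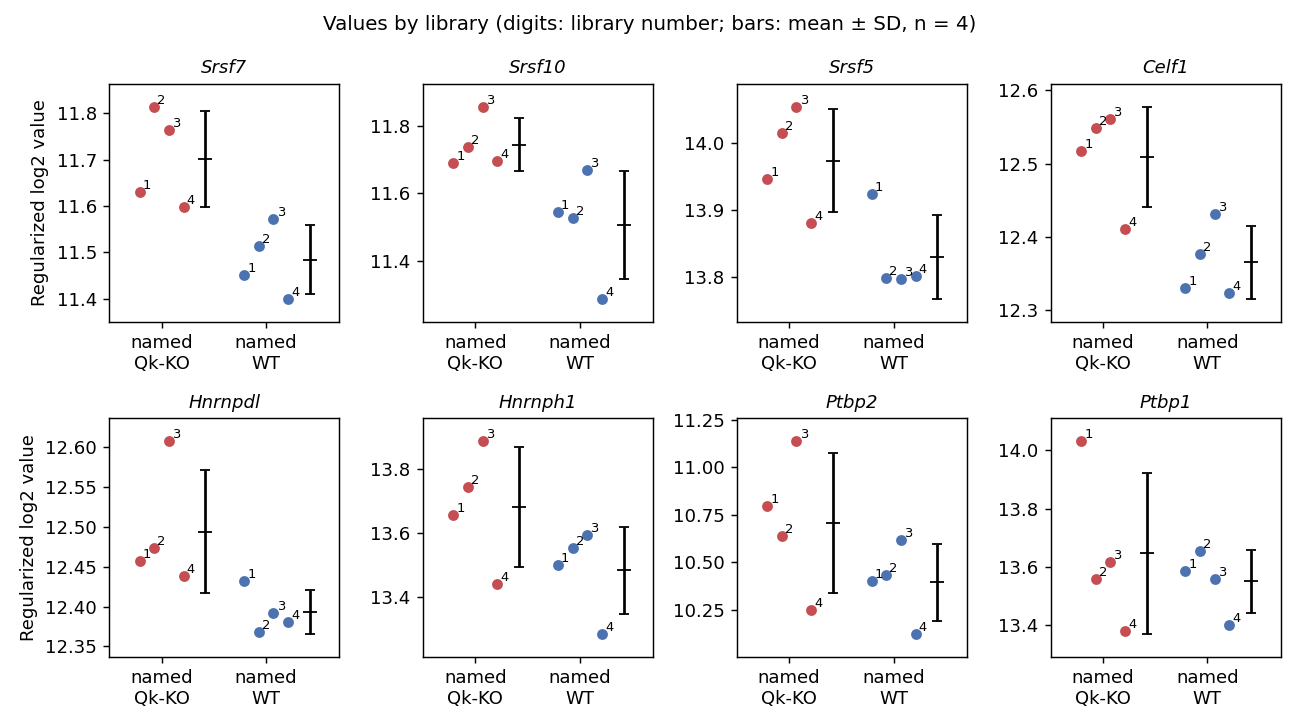
Regularized log2 values of 8 members in each named Qk-KO (left, red) and named WT (right, blue) library, with digits for the library number and bars for mean ± SD (n = 4 each); the axes do not start at 0 and differ between genes. For Srsf7, Srsf10 and Hnrnpdl the groups do not overlap. For Srsf7, Celf1, Hnrnph1, Ptbp1 and Ptbp2 the library numbered 4 is the lowest of both groups.

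The libraries numbered 4 stood apart in more than these genes. In 15 of the 38 members of at least 1 CPM, or 39.5%, the lowest value of both groups was that of the library numbered 4, against 19.8% of all genes at that level and 14% of 43 genes of the core spliceosome. The 15 were Celf1, Srsf3, Srsf7, Ptbp1, Ptbp2 and 10 hnRNP genes. Named Qk-KO 4 was the lowest of its group for 23 of 38 members, or 60.5%, against 34.8% of all genes and 16.3% of the core spliceosome. Named WT 4 was the lowest of its group for 27 of 38, or 71.1%, against 35.2% of all genes and 55.8% of the core spliceosome. Celf4 and Srsf9 had the highest value of both groups there.

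The same libraries had the highest astrocyte, oligodendrocyte and neuron marker sums of their groups. The log2 of the summed normalized values of 8 astrocyte markers, all with reads, was 14.64 in named Qk-KO 4 and 12.18 to 13.43 in named Qk-KO 1 to 3, against 14.82 in named WT 4 and 13.43 to 14.33 in named WT 1 to 3. For 8 oligodendrocyte markers it was 13.91 in named Qk-KO 4 and 12.80 to 12.90 in the others of its group, against 14.13 in named WT 4 and 12.89 to 13.00 in the others. For 10 neuron markers it was 10.20 and 8.32 to 8.80, against 10.05 and 9.04 to 9.13. The sums of other lists did not follow this order. The sum of 6 oligodendrocyte precursor markers was 12.87 in named Qk-KO 4, the lowest of all, and 13.44 to 13.60 in named Qk-KO 1 to 3. It was 13.70 in named WT 4 and 13.35 to 13.76 in named WT 1 to 3. Cspg4, at 199 CPM against 0.69 to 1.65 CPM for the rest, set this sum. Olig1, Olig2 and Gpr17 were highest of both groups in the libraries numbered 4, Pdgfra in named Qk-KO 4 only and Vcan in neither. For 6 endothelial markers the sum was 13.70 in named Qk-KO 4 and 13.57 to 13.65 in named Qk-KO 1 to 3. It was 13.66 in named WT 4 and 13.44 to 13.88 in named WT 1 to 3. Flt1, at 184 CPM against 6.14 to 11.4 CPM for the rest, set this sum and was lowest of its group in named Qk-KO 4. Cldn5, Pecam1, Ly6c1, Cdh5 and Slco1a4 were each highest of their group in named Qk-KO 4, and none was in named WT 4. For 5 erythroid markers the sum was 13.79 and 12.73 to 13.98, against 14.22 and 13.65 to 14.51. None of these markers was at 0, and 12 of 12 microglia markers were strongly expressed, from 139 to 5878 CPM, with sums of 20.40 to 20.57 in named Qk-KO and 20.60 to 20.71 in named WT libraries. The part of other cells in the members' values was not tested.

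Relative to each gene's mean over 8 libraries, the members' median deviation was 0.05, 0.03, 0.10 and -0.03 in named Qk-KO 1 to 4, against -0.005, 0.02, -0.004 and -0.11 in named WT 1 to 4. At the extremes were named Qk-KO 3, which held the highest value of all for 16 of 38 members, or 42.1%, against 18.1% of all genes at that level and 2.33% of the core spliceosome, and named WT 4, which held the lowest for 16 of 38, against 18.7% of all genes. In named WT 4 the core spliceosome had a similar share, with 44.2% of its genes lowest there. Named Qk-KO 3 had the lowest astrocyte and neuron marker sums of all 8 libraries and named WT 4 the highest astrocyte and oligodendrocyte sums. The microglia marker sum was likewise lowest of all in named Qk-KO 3 (20.40) and highest in named WT 4 (20.71). The core spliceosome genes had their highest median deviation in named Qk-KO 4 (0.08) and their lowest in named WT 4 (-0.08), so they did not follow the members in named Qk-KO 4.

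**Figure D4:**
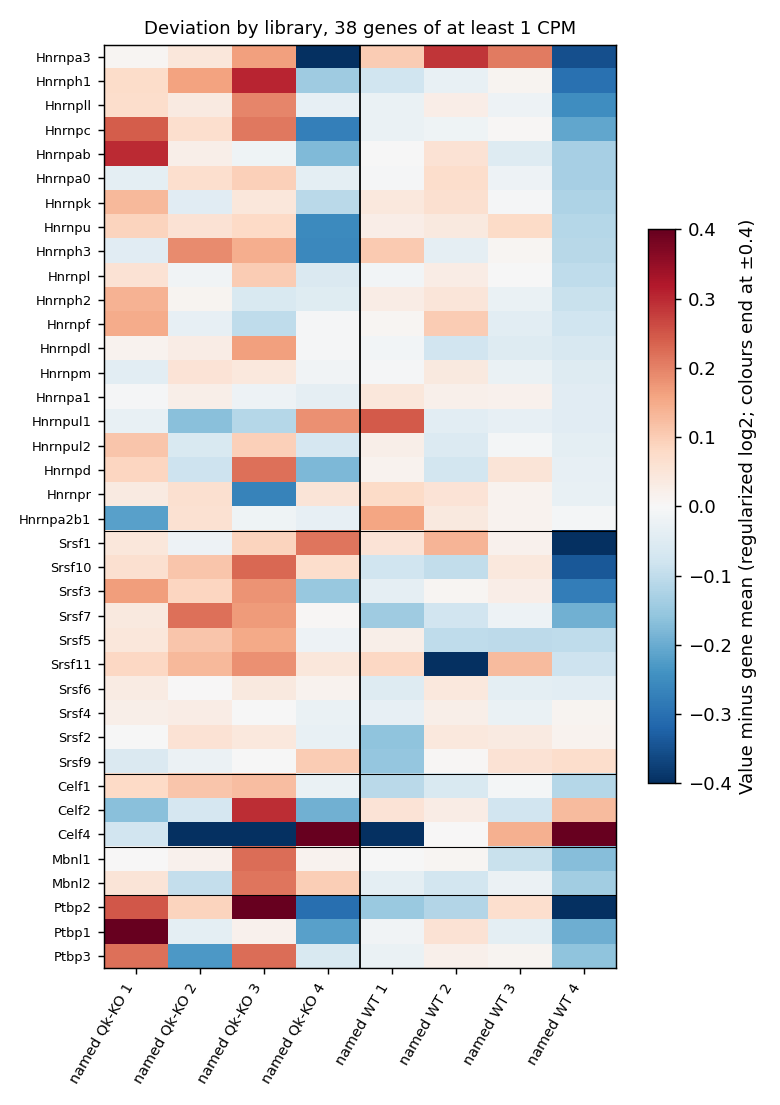
Deviation of each library from the gene mean for the 38 genes of at least 1 CPM, ordered within family by the value in named WT 4, on the regularized log2 scale with colours ending at ±0.4. Named WT 4 is below the gene mean for 33 of 38 genes and named Qk-KO 4 for 27 of 38, whereas named Qk-KO 1 and 3 are each above it for 28.

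**Figure D5:**
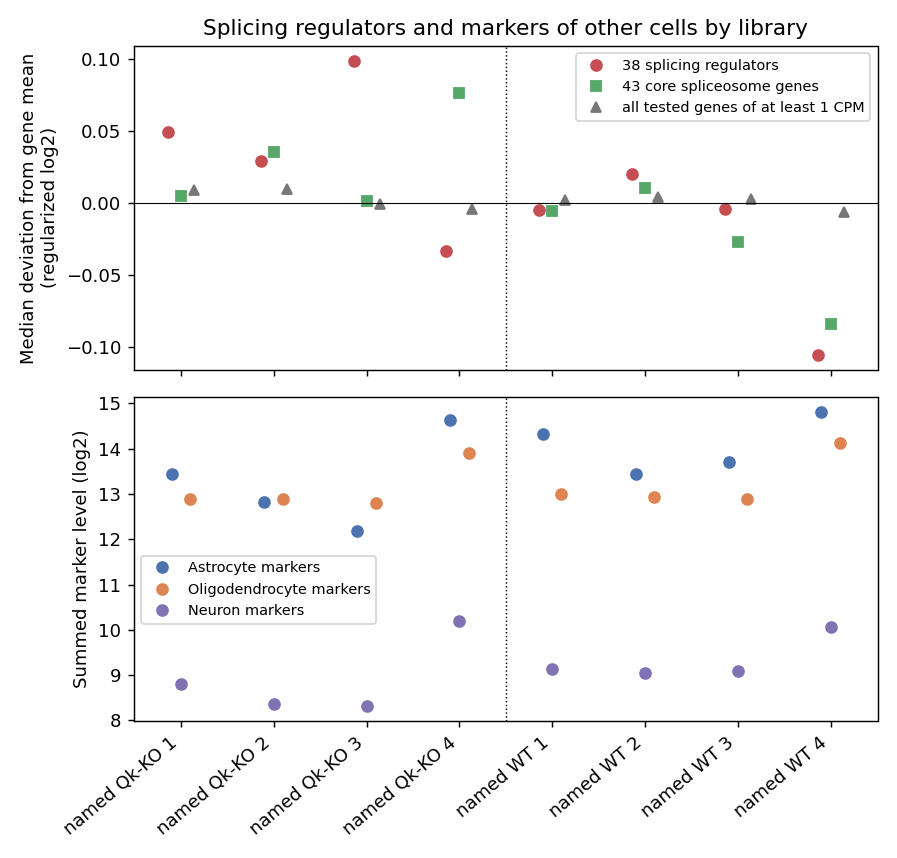
Median deviation by library of the 38 splicing regulators, of 43 core spliceosome genes and of all tested genes of at least 1 CPM (top), and the log2 summed level of astrocyte, oligodendrocyte and neuron markers (bottom), with named Qk-KO libraries on the left. The marker sums are high in named Qk-KO 4 and named WT 4, where the members' median deviations are -0.03 and -0.11, the lowest of each group.

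Without both libraries numbered 4, a comparison added after the data were seen, limma called 0 of 43 members, with a smallest adjusted p of 0.229, and 4 of 22546 genes, or 0.0177%. An unadjusted p under 0.05 was then found for 8 of 38 members of at least 1 CPM (Celf1, Hnrnpc, Hnrnph1, Ptbp2, Srsf3, Srsf5, Srsf7 and Srsf10), or 21.1%, against 15.5% of all genes at that level. All 8 were higher in named Qk-KO libraries. All named Qk-KO values then lay above all named WT values for 10 of 38 members, or 26.3%, against 10.9% of all genes at that level. Srsf7, Srsf10 and Hnrnpdl, which did not overlap with all 8 libraries either, were among the 10. No member had all values below, against 10.7% of all genes at that level. The difference was then 0.22 for Srsf7, 0.37 for Ptbp2 and 0.21 for Hnrnph1, and 0.18 for Srsf10. It was -0.03 for Srsf1.

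Leaving out named Qk-KO 4 alone also gave 8 of 43 members at an unadjusted p under 0.05, against 16.4% of all genes, and leaving out named WT 4 alone gave 2 of 43 (Srsf7 and Srsf10), against 6.4% of all. In each alternative that kept the sample names, Srsf7 and Srsf10 had an unadjusted p under 0.05, and 0 members were called.

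Grouped by the genotype field, 0 of 43 members had an unadjusted p under 0.05 in limma, against 602 of 22546 genes, or 2.67%, and limma called 0 genes. The field Qk-KO libraries were higher for 19 of 43 members, with a median difference of -0.005. The difference was 0.06 for Srsf7, 0.06 for Srsf10, -0.06 for Srsf5 and 0.01 for Celf1, each smaller than its standard error. In no member did the groups by field fail to overlap, against 0.931% of all genes above and 0.923% below.

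Other genes of RNA splicing were counted in the same fits. Of 16 hnRNPs under other symbols, 8 had a fold change over 0 on the log2 scale of the authors' deposited table, 0 were called there or by limma, and 1 had an unadjusted p under 0.05. That gene was Matr3, a nuclear matrix protein that works with PTB, at a log2 difference of 0.18 and adjusted p 0.385 in the authors' deposited table. Of 20 SR-related proteins and SR kinases, 0 were called and 0 had an unadjusted p under 0.05 there. In limma 1 of the 20 had one, Srrm4, a neuronal regulator of microexons at 0.120 CPM here, with a difference of -0.40, p 0.030 and an adjusted p of 0.561. Clk4, one of the kinases that phosphorylate SR proteins, had the smallest adjusted p of the list in the authors' deposited table, 0.532. Of 30 other regulated splicing factors 0 were called and Rbm20, a heart and muscle factor at 0.448 CPM here, had an unadjusted p of 0.013 in the authors' deposited table, with no adjusted p.

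Of the 43 core spliceosome genes 31 had a positive limma difference, a median of 0.06, and 0 were called. At an unadjusted p under 0.05 in the authors' deposited table, 4 were higher, the snRNP proteins Snrpb2 and Snrpe, Sf3b3 of the branch point complex and the catalytic core protein Prpf8, and Sf3b4 was lower, against 5.67% of all genes higher and 4.98% lower. Snrpb2 had the smallest adjusted p, 0.134, and a log2 fold change of 0.18. Of the splicing regulators 30 of 43 were positive. All core spliceosome genes were of at least 1 CPM, and 72.1% of them were positive. At that level 30 of 38 splicing regulators were positive, or 78.9%, and 52% of all genes. No test of a difference between the regulators and the core spliceosome was made.

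Gene-level values sum all isoforms, and this family of genes is rich in isoforms that are not translated. The annotation holds at least 1 transcript of the nonsense-mediated decay type for 25 of 43 members, or 58.1%, against 25.8% of 15881 protein-coding genes tested and 29.4% of those of at least 1 CPM. Such transcripts were annotated for 9 of 11 SR genes and 3 of 3 PTB genes, 10 of 20 hnRNP genes, 3 of 6 CELF genes and 0 of 3 MBNL genes. A retained-intron transcript was annotated for 33 of 43, or 76.7%, against 53.2%. The table holds 1 value per gene, so a shift between productive and unproductive isoforms was not measurable here.

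Members with and without a quaking core in the 3′ UTR are given side by side. The median difference was 0.03 for the 18 members of at least 1 CPM with a core and 0.05 for the 20 without, and 13 of 18 and 17 of 20 were positive. An unadjusted p under 0.05 was found for 2 genes with a core (Srsf5 and Srsf10) and 2 without (Srsf7 and Celf1).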

How the data were processed

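RNA of 8 microglia libraries was analysed from 1 table of 46983 genes. Per the submitters' processing notes, the tools were FastQC, HISAT2, StringTie and DESeq2, with mm10 as the build and neither versions nor roles stated. Annotation release and strand setting: not given in the sources used here. Each library has a column of deposited log2 values. They behave as regularized values, which are shrunken towards the gene mean where counts are low and so understate the differences of such genes. Per the file headers, the authors' deposited table also gives a mean signal (baseMean), log2 fold changes and their standard errors, test statistics (a score), p-values and adjusted p-values. Counts were not used here.

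Genes had to reach a normalized value of 1 in 4 or more libraries to be tested, which kept 22546 of the 27486 with reads, with limma 3.58.1 in R 4.3.3 (intensity trend, robust empirical Bayes, no pseudocount), two-sided, with Benjamini-Hochberg adjustment over all tested genes and a threshold of 0.05. All 43 members were tested. CPM is the deposited mean signal divided by 56.8. Rough totals came from the worth of 1 read, taken from genes seen in only 1 library, where at least 99.55% of values were whole within 1%; the deposited values could not be turned back into counts per gene. Intervals are at 95%. The method was tested on simulated data.

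Members and gene lists were chosen with earlier results of these data known. Values in every library are given for members with an unadjusted p under 0.05, the 3 highest and 3 lowest deposited log2 fold changes of at least 1 CPM, the highest mean signal of each family and all CELF, MBNL and PTB genes, with ranges for those under 1 CPM. All 43 members were matched by Ensembl identifier without version to GENCODE M21 on GRCm38 and 39 to RefSeq promoters. The 3′ UTR of 1 coding transcript per gene was searched, with principal isoforms preferred and then the longest coding sequence. Alternatives were the genotype field alone or as a second term, a replicate block, leaving out each library, other filters, scalings and models, and leaving out both libraries numbered 4.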

Additional observations from a re-analysis of the deposited data

Results flagged for a closer look

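In each named group of 4 libraries the highest and lowest value of every member was set against the other three. Of 86 groups, 10 held a value whose gap to its nearest neighbour exceeded Dixon's critical share of the group's range at 95%. The nominal rate of 1 in 20 groups holds for independent, normally distributed values. The share among all tested genes was not counted, so whether the members hold more such values than other genes is not known. The 10 values are given without a cause.

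Among named Qk-KO libraries, Mbnl1 was high in library 3, at 14.77 against 14.55 to 14.56 in the others, and Hnrnpr was low there, at 11.12 against 11.42 to 11.45. Hnrnpu was low in named Qk-KO 4, at 14.41 against 14.72 to 14.75. Under 1 CPM, Celf6 was high in named Qk-KO 3, at 0.50 against 0.30, and Srsf12 was high in named Qk-KO 4, at 1.53 against 0.98 to 0.99.

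Among named WT libraries, Srsf5 was high in library 1, at 13.92 against 13.80, and so was Hnrnpul1, at 14.01 against 13.72 to 13.73. Srsf2 was low in the same library, at 12.69 against 12.87 to 12.90. Srsf6 was high in named WT 2, at 12.98 against 12.88 to 12.90, and Hnrnpc was low in named WT 4, at 12.08 against 12.25 to 12.29. Without named WT 1 the difference of Srsf5 was 0.17, and without named Qk-KO 3 that of Mbnl1 was 0.08.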

How the results depend on the processing

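Limma called 0 members under all 18 alternatives, with between 0 and 8 members at an unadjusted p under 0.05. The number of genes called over the whole table was 1. It was 0 by the genotype field (602 genes at an unadjusted p under 0.05), 0 among genes of at least 1 CPM (1392 at an unadjusted p under 0.05) and 4 without both libraries numbered 4. Leaving out 1 library gave 0 to 7, with 0 without named Qk-KO 3 (1410 at an unadjusted p under 0.05) and 7 without named Qk-KO 4. The members' median difference of 0.03 moved by less than the spread between libraries in all 18, from -0.005 by the genotype field to 0.11 with median scaling. Leaving out 1 library gave 24 to 31 positive members, with 24 without named Qk-KO 1. The count at an unadjusted p under 0.05, 4 in the comparison as reported, was 2 with neither trend nor robust estimation. Of 338 values of the 19 named members under these alternatives, 13 moved by more than 1 SD of a group, 11 of them by the genotype field, and 26 changed sign, 12 of them by the genotype field; the cause was not tested. With the replicate block limma called 1 gene and 0 members, and 7 of 43 members had an unadjusted p under 0.05, against 13% of all genes. Same-number correlations of deviations were 0.04, 0.15, 0.25 and 0.46 for numbers 1 to 4, against -0.33 to 0.15 between different numbers. Named Qk-KO 2, 3 and 4 each correlated best with their own number and named Qk-KO 1 with named WT 3. This is a hint of pairing from the data, not from the design. Number 1 missed the 0.1 asked of every pair and no label states a pairing, so the libraries were treated as unpaired. Shrinkage limits what can be seen of the 5 members under 1 CPM.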
